A study of Homo sapiens with 16 samples.

Results

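The genes described here are 43 named epithelial junction, polarity and keratin genes, their regulators, and genes of the epithelial to mesenchymal transition (EMT), measured by polyA RNA sequencing in VCaP cells. They were chosen by name, with earlier results of these data known, and 42 of them were found among the 40888 genes with at least 1 read. The exception, TWIST1, had 0 reads in all 16 libraries. VCaP is an androgen-dependent line from a human prostate cancer, with a TMPRSS2 to ERG fusion. The study asked how VCaP cells respond to androgen and to the antiandrogen enzalutamide after long exposure to that drug. Ver cells had been kept for 4 months in 1 µM enzalutamide, and Vc cells for 4 months in ethanol. Before treatment, which lasted 24 h, both were starved of steroid (charcoal-stripped serum, medium free of phenol red) for 48 h or more. There were 8 groups: Ver with DHT plus enzalutamide, with DHT, with enzalutamide and with control medium, and the same 4 treatments in Vc. DHT (dihydrotestosterone, the main androgen of the prostate) was given at 1 nM and enzalutamide at 1 µM. Each group had 2 libraries, not stated to come from separate cultures, so p-values measure the spread between these libraries, which may be technical. Ver and Vc are 1 line each. Every Ver library description ends in 1 suffix and every Vc description in another, so that suffix and line cannot be told apart.

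Epithelial cells are held together by adherens junctions, in which E-cadherin (CDH1) is tied to the actin skeleton through catenins, by desmosomes, which anchor keratin filaments, and by tight junctions, whose claudins seal the space between cells. Polarity proteins of the Par, Crumbs and Scribble groups set apart the apical and basal sides. GRHL2, ELF3 and the splicing factors ESRP1 and ESRP2 maintain the epithelial programme, while SNAI1, SNAI2, ZEB1, ZEB2 and TWIST1 repress CDH1 and other junction genes during EMT, when N-cadherin (CDH2) and vimentin (VIM) appear. Luminal prostate cells, which the androgen receptor drives, are marked by KRT8, KRT18 and KRT19.

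The EMT repressors bind E-box letters, CACCTG or its reverse complement CAGGTG, and grainyhead factors such as GRHL2 bind letters like AACCNGTT. RefSeq promoter sequences (GRCh38.p14) were matched for 24 of the 43 genes. CDH1 was not among them. In the 250 bases before the annotated start, the E-box was found on either strand in 8 of these 24 genes, and in 17.5% of all 27305 promoters searched. The grainyhead letters were found in 1 of 24, CGN, and in 1.48% of all promoters, while AGAACA, the hexamer of the androgen response element, was found in 0 of 24 and in 12.4% of all. The motifs do not overlap one another in the sequences below, and a match is a description of letters, not evidence of binding. CRB3, which had the largest DHT rise among the polarity genes in both lines, holds 5 E-boxes. They are shown in their surrounding 30 bases at chr19:6464031-6464060, chr19:6464051-6464080, chr19:6464112-6464141, chr19:6464170-6464199 and chr19:6464199-6464228, on the plus strand and with the E-box in capitals. The motifs begin 228, 208, 147, 89 and 60 bases before the RefSeq start of this table. GENCODE release 29 starts CRB3 farther upstream, so all 5 sites lie inside its gene, and 193 of the window's 250 bases are exon there.
CRB3 site 228: atgctcgcaatgCAGGTGtaaggtccccct
CRB3 site 208: aggtccccctcaCACCTGcgcgcttccgcg
CRB3 site 147: ggggtcccgttaCAGGTGcgcccacagcgc
CRB3 site 89: ctcagcgaggctCAGGTGcacaagccggaa
CRB3 site 60: agtgcgctctccCAGGTGagtgactaaact
The desmosome genes DSC2, DSG2 and DSP also hold E-boxes, though DSC2 rose with DHT and DSG2 and DSP fell. Their sites are shown for that contrast. They lie at chr18:31102560-31102589 (minus strand), chr18:31497933-31497962, chr18:31498049-31498078, chr6:7541481-7541510 and chr6:7541574-7541603 (plus strand). The motifs of DSG2 site 116 and DSP site 85 lie inside the GENCODE genes, and the other 3 lie before them.
DSC2 site 156: tcaactttctgtCAGGTGggcctcaggcag
DSG2 site 232: acgtcacggtccCAGGTGcgagtgcgagcg
DSG2 site 116: tcgcggcggccaCACCTGgagccgcgcctt
DSP site 178: gggcggcgggcgCAGGTGgggaggggcggc
DSP site 85: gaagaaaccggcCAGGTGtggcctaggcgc
The last pair are whole windows of 250 bases from 2 tight junction scaffold genes that moved in opposite directions with DHT. TJP1 (chr15:29969050-29969299, minus strand), which rose, has 1 E-box in capitals. CGN (chr1:151511137-151511386, plus strand), which fell, has the grainyhead letters in capitals, here as their reverse complement AACNGGTT. The CGN window lies inside the GENCODE gene, with 0 of its bases in an exon, and the TJP1 window lies before its gene.
TJP1: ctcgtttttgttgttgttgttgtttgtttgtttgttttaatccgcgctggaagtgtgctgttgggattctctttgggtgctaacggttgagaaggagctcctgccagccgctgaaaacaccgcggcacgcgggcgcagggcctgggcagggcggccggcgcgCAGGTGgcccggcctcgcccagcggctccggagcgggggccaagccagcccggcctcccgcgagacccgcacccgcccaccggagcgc
CGN: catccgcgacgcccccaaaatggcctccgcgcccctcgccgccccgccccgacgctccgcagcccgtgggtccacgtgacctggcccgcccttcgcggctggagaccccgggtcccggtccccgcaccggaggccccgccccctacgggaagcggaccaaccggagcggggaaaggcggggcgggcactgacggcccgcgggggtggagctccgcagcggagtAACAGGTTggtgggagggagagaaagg

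Gene totals ran from 8155244 to 13273523 reads per library, and 22553 genes, including 39 of the 43, passed the filter on low counts. VIM, ZEB1, ZEB2 and TWIST1 did not pass. The summed level of 9 luminal prostate markers was 8813 to 14036 CPM (counts scaled to a common library size) in every library. The basal markers KRT5 and KRT17 were at 0, and 5 basal markers together reached at most 4.10 CPM. The 7 fibroblast markers summed to 2.05 to 84.9 CPM. Of these, LUM stood at 0.803 to 1.20 CPM with DHT and 49.6 to 57.2 CPM in control in Ver, and at 0.329 to 0.610 CPM with DHT and 13.5 to 14.0 CPM in control in Vc, and COL1A1 at 0.935 to 2.54 CPM over all libraries. COL1A2, COL3A1, DCN and PDGFRA stayed below 1 CPM in every library, and PDGFRB reached at most 1.18 CPM. Leukocyte markers summed to at most 2.09 CPM and endothelial markers to at most 3.45 CPM. The 6 neuroendocrine markers summed to 46.8 to 90.9 CPM. Among them CHGA stood at 2.50 to 2.95 CPM with DHT and 3.20 to 3.40 CPM in control in Ver, and at 11.99 to 13.1 CPM with DHT and 14.6 to 14.7 CPM in control in Vc. ENO2 stood at 3.23 to 5.35 CPM with DHT and 15.5 to 19.4 CPM in control in Ver, and at 1.63 to 1.72 CPM with DHT and 7.01 to 7.22 CPM in control in Vc. NCAM1 was likewise lower with DHT and higher in Ver control than in Vc control. SYP went the other way with DHT, at 14.7 to 16.3 CPM against 5.14 to 7.07 CPM in control in Ver. In Vc it stood at 19.7 to 20.7 CPM with DHT and 9.43 to 11.2 CPM in control. INSM1 stood at 22.5 to 22.8 CPM with DHT and 32.8 to 35.5 CPM in control in Ver. Its Vc libraries overlapped, at 15.4 to 17.9 CPM with DHT and 14.0 to 20.4 CPM in control. The mean share of reads in no gene was 45.4% with DHT and 48.8% in control in Ver, and 47.0% with DHT and 50.4% in control in Vc. LUM, ENO2, NCAM1, CHGA, SYP and this share therefore moved with DHT and with line, and their part in the results below was not tested. In bulk RNA, fewer cells of a type and less RNA per cell cannot be told apart.

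Levels between genes were compared as CPM per kb of exons, averaged over the 16 libraries. CD24, a surface glycoprotein, was highest at 128.7 CPM per kb, followed by KRT8 at 97.0, CTNND1 (p120 catenin) at 77.2, KRT19 at 72.3, KRT18 at 69.8 and CTNNA1 (alpha-catenin) at 60.1. EPCAM, an epithelial adhesion molecule, averaged 56.3, ESRP1 52.1 and CDH1 50.2 CPM per kb. At the low end, CDH2 averaged 0.394, SNAI1 0.375, SNAI2 0.233, VIM 0.0433, ZEB2 0.00967 and ZEB1 0.00892 CPM per kb. The range from the epithelial to the mesenchymal members was thus wide in every treatment, with CDH1 at 229.9 to 379.1 CPM and CDH2 at 0.176 to 5.47 CPM over the libraries. Counting was unstranded, and 29 of the 43 genes overlap another annotated gene. Among these, KRT8 and KRT18 overlap each other on opposite strands of chromosome 12, CTNND1 overlaps a readthrough gene, and KRT8 and KRT18 have many near-identical pseudogenes, so the levels of these 3 genes are uncertain.

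**Figure D1:**
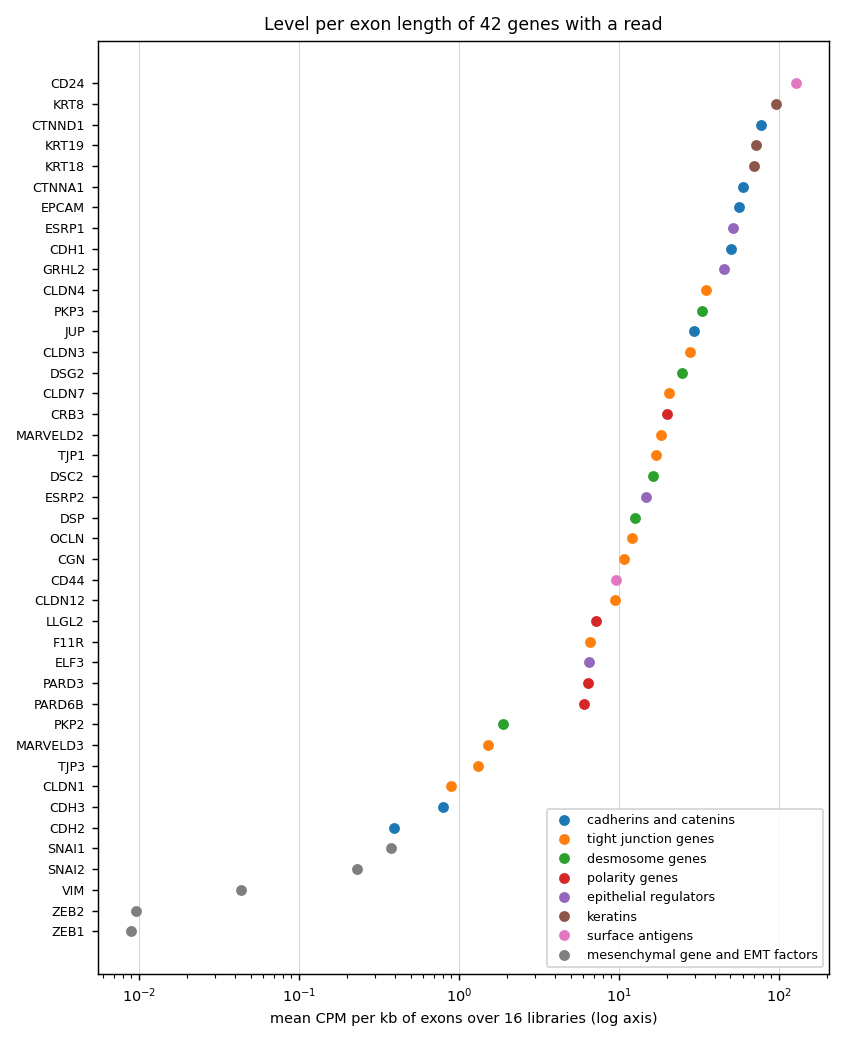
Mean level of the 42 genes with a read, in CPM per kb of exons over 16 libraries on a log axis, coloured by role. CD24 and the keratins stand at the top and ZEB1, ZEB2 and VIM at the bottom; TWIST1, at 0, is not drawn.

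DHT raised more of these genes than it lowered in both lines. After SNAI2, the largest rises in both were those of CRB3, ESRP1, CLDN7 and the 3 keratins, and the largest fall was that of P-cadherin (CDH3). A gene was called at an adjusted p under 0.05 (edgeR's quasi-likelihood test with Benjamini-Hochberg adjustment over all 22553 genes, the test behind each adjusted p given here). In Ver, DHT raised 17 and lowered 10 of the 39 tested genes, while of all genes tested it raised 21.2% and lowered 22.9% (44.1% called in all). In Vc, it raised 19 and lowered 9 of the 39, and raised 21.8% and lowered 22.5% of all genes (44.3%). Both counts of raised genes include SNAI2, which passed the filter only through its DHT libraries. A larger share of the 39 genes than of all genes was thus called higher. The genes were chosen with earlier results of these data known, so this excess was not independent of that choice. The median log2 change of the 39 genes was 0.13 in Ver and 0.22 in Vc, and that of all genes was -0.04 in each. In both lines 16 genes rose, 7 fell and 0 moved in opposite directions. The shares of all genes called in the same or in opposite directions in both lines were not counted. This overlap is therefore not shown to be particular to these genes. In neither line were EPCAM, CTNND1, F11R, PARD3, PARD6B, ESRP2 and SNAI1 called. Of the calls, 20 of 27 in Ver and 23 of 28 in Vc held under every alternative analysis and with each library left out in turn.

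**Figure D2:**
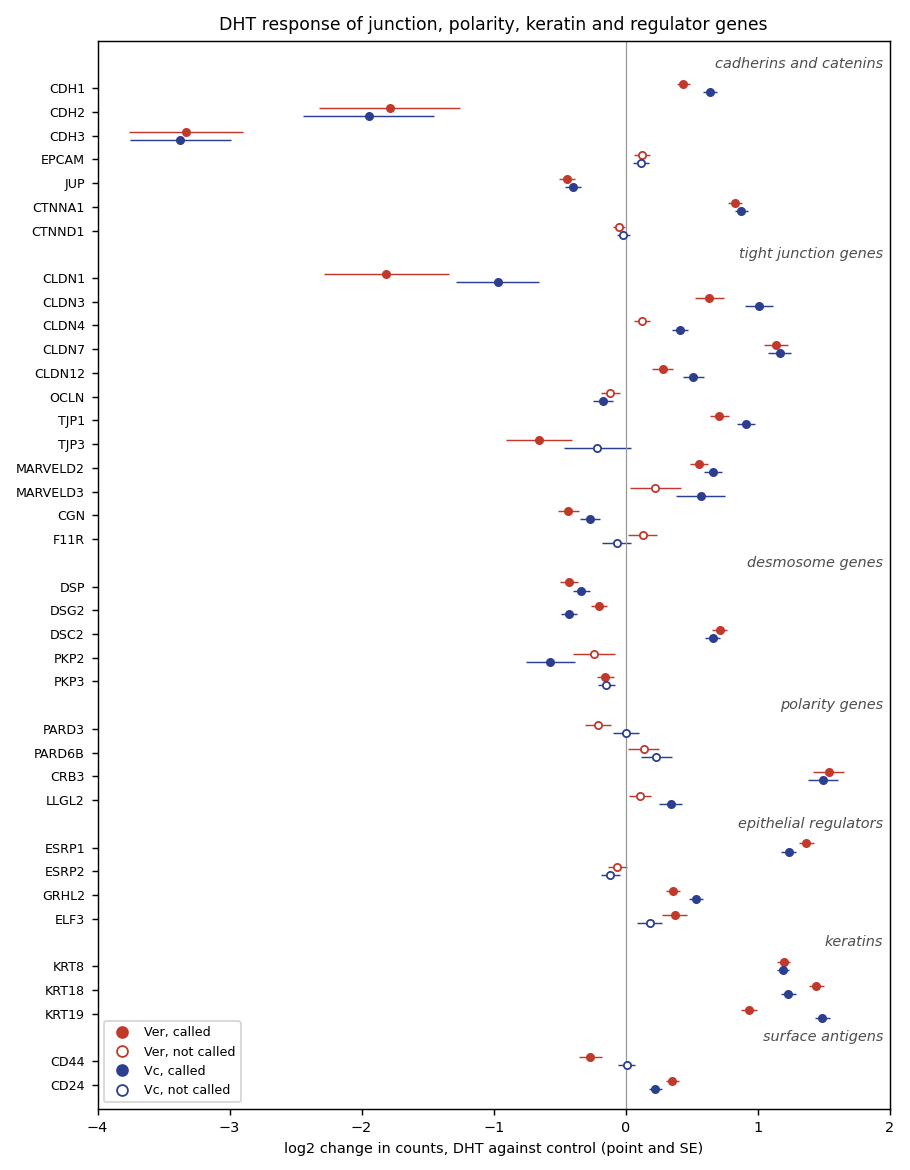
Log2 change in counts with DHT against control, with its SE, for 37 tested genes grouped by role; Ver in red above Vc in blue, filled where called (adjusted p under 0.05). All 3 keratins, CRB3 and ESRP1 lie to the right in both lines, and CDH2, CDH3 and CLDN1 farthest to the left. SNAI1 and SNAI2 are left out because of their low counts.

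Among cadherins and catenins, CDH1 and CTNNA1 rose while CDH2, CDH3 and JUP fell, in both lines. CDH1 (chr16:68737225-68835548) had 379.1 and 372.1 CPM with DHT, against 278.2 and 276.5 CPM in control, in Ver. The Vc libraries had 371.2 and 362.0 CPM with DHT, against 240.1 and 229.9 CPM in control. The DHT libraries were higher than the controls in each line without overlap. The log2 change of CDH1 was 0.44 ± 0.05 (SE) in Ver (adjusted p = 5.88e-13) and 0.64 ± 0.05 in Vc (1.13e-22), and the difference between these changes was not called (0.151). CTNNA1, which links cadherin complexes to actin, had 771.7 and 764.9 CPM with DHT, against 426.6 and 439.2 CPM in control, in Ver. Vc cells had 701.7 and 724.2 CPM with DHT, against 403.6 and 372.7 CPM in control. Its log2 change was 0.83 ± 0.05 in Ver (9.13e-34) and 0.88 ± 0.05 in Vc (3.88e-36). JUP, plakoglobin, a catenin shared by adherens junctions and desmosomes, went the other way. It had 123.4 and 110.8 CPM with DHT, against 157.9 and 160.4 CPM in control, in Ver, and 114.1 and 118.5 CPM with DHT, against 153.8 and 152.2 CPM in control, in Vc. On the log2 scale it changed by -0.44 ± 0.06 in Ver (2.22e-10) and -0.40 ± 0.06 in Vc (7.33e-09). EPCAM was not called: it had 163.5 and 155.0 CPM with DHT, against 151.4 and 140.8 CPM in control, in Ver (adjusted p = 0.0913), and 156.2 and 135.2 CPM with DHT, against 137.8 and 131.4 CPM in control, in Vc (0.122).

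CDH3 (chr16:68636189-68722616), P-cadherin, a cadherin of basal epithelium, is the neighbour of CDH1 on chromosome 16 and had, apart from SNAI2, the largest DHT change in size of the 39 genes in both lines. It had 0.624 and 0.738 CPM with DHT, against 7.76 and 6.17 CPM in control, in Ver. In Vc it had 0.821 and 1.02 CPM with DHT, against 10.9 and 8.16 CPM in control. As summed counts these were 15 with DHT and 149 in control in Ver, and 20 with DHT and 237 in control in Vc. Scaled for depth, the ratio was 0.0981 in Ver (95% counting interval 0.0536 to 0.167) and 0.0949 in Vc (0.0569 to 0.150). The log2 change was -3.33 ± 0.43 in Ver (adjusted p = 6.06e-15) and -3.37 ± 0.39 in Vc (1.09e-17). CDH2 was sparser. It had 0.357 and 1.02 CPM with DHT, against 2.81 and 1.97 CPM in control, in Ver, and 1.07 and 0.508 CPM with DHT, against 3.08 and 3.23 CPM in control, in Vc. Its log2 change was -1.79 ± 0.53 in Ver (adjusted p = 0.00186) and -1.95 ± 0.50 in Vc (2.15e-04). Without Ver DHT replicate 1 the call of CDH2 in Ver was lost (adjusted p = 0.0952).

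Among the 12 tight junction genes, 5 rose and 3 fell in Ver, and 7 rose and 3 fell in Vc, beside all-gene shares of 21.2% higher and 22.9% lower in Ver and 21.8% and 22.5% in Vc. CLDN3, CLDN7, CLDN12, TJP1 and MARVELD2 (tricellulin) rose in both lines. CLDN7, a sealing claudin of simple epithelia, had 90.2 and 79.5 CPM with DHT, against 37.0 and 40.0 CPM in control, in Ver. The Vc libraries had 77.4 and 71.5 CPM with DHT, against 33.2 and 33.3 CPM in control. All DHT libraries lay above all controls, and the log2 change was 1.14 ± 0.09 in Ver (4.18e-24) and 1.17 ± 0.09 in Vc (1.41e-24). TJP1, the scaffold ZO-1, had 217.6 and 242.5 CPM with DHT, against 156.6 and 125.0 CPM in control, in Ver, and 298.3 and 303.0 CPM with DHT, against 165.6 and 153.9 CPM in control, in Vc. On the log2 scale it changed by 0.71 ± 0.07 in Ver (5.58e-11) and 0.91 ± 0.07 in Vc (2.01e-14). CLDN3 changed by 0.63 ± 0.11 in Ver (4.09e-07) and 1.01 ± 0.11 in Vc (4.83e-16) on the log2 scale. In contrast, CGN (cingulin, a junction protein that binds ZO-1) had 53.9 and 46.2 CPM with DHT, against 68.1 and 67.4 CPM in control, in Ver. Vc cells had 68.0 and 72.1 CPM with DHT, against 83.4 and 85.2 CPM in control. Its log2 change was -0.44 ± 0.08 in Ver (1.20e-06) and -0.27 ± 0.08 in Vc (0.0016), and the Vc call was lost without Vc DHT replicate 1 (adjusted p = 0.0587). CLDN1 was called lower in both lines at 0.526 to 7.85 CPM over all libraries, and its Vc call was lost without Vc control replicate 1 (0.141) or without Vc DHT replicate 2 (0.205). CLDN12 in Ver was called higher (0.28 on the log2 scale), and the call was lost without Ver control replicate 2 (0.106). TJP3 (ZO-3) was called in Ver (-0.66), and lost its call without Ver control replicate 1, Ver DHT replicate 1 or Ver DHT replicate 2 (0.0764 to 0.153). In Vc, OCLN (occludin) was called at -0.17 and MARVELD3 at 0.57. The OCLN call was lost without any 1 of the 4 libraries (0.0538 to 0.340), and the MARVELD3 call without Vc control replicate 2 (0.142) or Vc DHT replicate 2 (0.0652). F11R (JAM-A) ranged from 28.3 to 37.6 CPM over the 16 libraries.

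In desmosomes the cadherins DSC2 and DSG2 moved in opposite directions. DSC2 (desmocollin 2) had 246.1 and 253.7 CPM with DHT, against 154.1 and 151.3 CPM in control, in Ver, and 261.9 and 269.3 CPM with DHT, against 171.2 and 165.2 CPM in control, in Vc. On the log2 scale it changed by 0.71 ± 0.06 in Ver (5.13e-24) and 0.66 ± 0.05 in Vc (3.35e-22). DSP, desmoplakin, which ties the plaque to keratin filaments, had 89.4 and 106.4 CPM with DHT, against 133.7 and 129.8 CPM in control, in Ver. In Vc it had 123.7 and 115.5 CPM with DHT, against 151.9 and 150.5 CPM in control. Neither line showed overlap, and the log2 change of DSP was -0.43 ± 0.07 in Ver (7.37e-09) and -0.34 ± 0.06 in Vc (2.27e-06). DSG2 (desmoglein 2) changed by -0.20 ± 0.06 in Ver (0.00443) and -0.43 ± 0.06 in Vc (2.75e-10). The Ver call of DSG2 was lost without Ver control replicate 1 (0.0586) or without Ver DHT replicate 1 (0.127). PKP3, a plakophilin, was called lower in Ver (-0.16, adjusted p = 0.0395), and not without Ver control replicate 2 (0.321) or Ver DHT replicate 2 (0.433). Its relative PKP2 was called in Vc (-0.57 ± 0.18, adjusted p = 0.00666), and that call was lost without Vc control replicate 2 (0.117) or Vc DHT replicate 1 (0.146). The difference in the PKP2 response between the lines was not called (adjusted p = 0.645).

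Of the 4 polarity genes, CRB3 (chr19:6463777-6467221), the Crumbs protein of epithelial cells, rose in both lines. It had 59.5 and 56.2 CPM with DHT, against 18.7 and 21.1 CPM in control, in Ver. The Vc libraries had 49.2 and 51.9 CPM with DHT, against 18.2 and 17.6 CPM in control. Every DHT library was above every control of either line, and the log2 change was 1.54 ± 0.12 in Ver (9.64e-26) and 1.49 ± 0.12 in Vc (1.06e-24). CRB3 overlaps DENND1C and SLC25A23 on the other strand. LLGL2, a Scribble-group protein of the basal side, was called higher in Vc (0.34 ± 0.09, adjusted p = 3.93e-04) and not in Ver (0.11 ± 0.08, 0.317), and the difference between these changes was not called (0.413). PARD3 and PARD6B, of the Par complex, were called in neither line.

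The epithelial regulators ESRP1 and GRHL2 rose in both lines. ESRP1 (chr8:94641074-94707466), which directs epithelial splicing, had 492.6 and 487.9 CPM with DHT, against 190.9 and 188.6 CPM in control, in Ver. Vc cells had 343.9 and 337.1 CPM with DHT, against 149.8 and 139.7 CPM in control. The log2 change was 1.37 ± 0.05 in Ver (9.99e-53) and 1.23 ± 0.06 in Vc (6.61e-47), and ESRP2, its paralogue, was not called in either line. GRHL2 had 300.1 and 294.4 CPM with DHT, against 224.4 and 240.2 CPM in control, in Ver, and 363.1 and 379.2 CPM with DHT, against 262.5 and 251.4 CPM in control, in Vc. Its log2 change was 0.36 ± 0.05 in Ver (3.50e-09) and 0.53 ± 0.05 in Vc (1.92e-17). ELF3, an ETS factor of epithelia, was called higher in Ver (0.37, adjusted p = 4.66e-04), a call lost without Ver control replicate 2 (0.057), and its difference between the lines was not called (0.625).

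All 3 keratins rose in both lines, by 0.94 to 1.44 on the log2 scale in Ver and by 1.19 to 1.49 in Vc. KRT8 had 973.9 and 936.7 CPM with DHT, against 418.3 and 415.0 CPM in control, in Ver, and 1086 and 1128 CPM with DHT, against 500.4 and 468.7 CPM in control, in Vc. Its partner KRT18 had 396.0 and 401.2 CPM with DHT, against 148.2 and 144.9 CPM in control, in Ver, and 317.9 and 321.1 CPM with DHT, against 137.3 and 134.7 CPM in control, in Vc. KRT19 had 221.1 and 202.2 CPM with DHT, against 108.1 and 113.0 CPM in control, in Ver, and 337.6 and 346.0 CPM with DHT, against 120.3 and 123.3 CPM in control, in Vc. KRT18 reached its highest level in Ver and KRT19 in Vc, with no overlap between the DHT libraries of the 2 lines for either gene. The log2 changes were 1.20 ± 0.05 in Ver (4.05e-51) and 1.19 ± 0.05 in Vc (2.45e-51) for KRT8, and 1.44 ± 0.05 in Ver (9.42e-55) and 1.23 ± 0.05 in Vc (5.81e-47) for KRT18. KRT19 changed by 0.94 ± 0.06 in Ver (1.14e-30) and 1.49 ± 0.06 in Vc (8.98e-53).

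**Figure D3:**
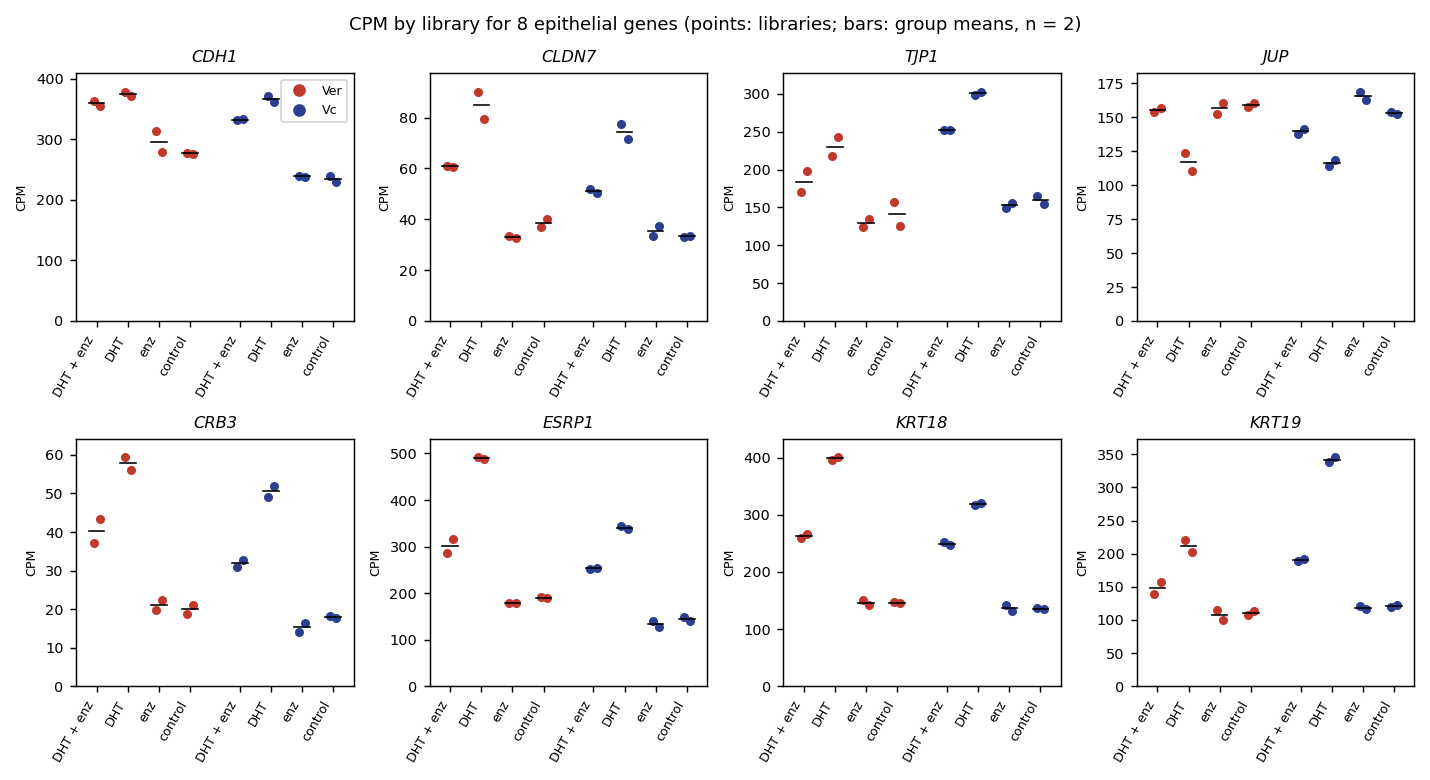
CPM in each library (points, n = 2 per group) with the group mean (bar) for 8 epithelial genes, Ver in red left of Vc in blue; enz is enzalutamide. With DHT, 7 genes are highest and JUP is lowest in both lines, and the enzalutamide groups lie near the controls.

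SNAI2 (Slug; chr8:48917604-48921740), a repressor of junction genes, rose with DHT in both lines. In Ver it had 36 reads over both DHT libraries and 1 over both controls, a depth-scaled ratio of 35.1 with a 95% counting interval of 5.91 to 1424. In Vc it had 80 reads with DHT and 5 in control, a ratio of 17.99 (7.40 to 56.9). Its adjusted p was 3.60e-05 in Ver and 9.09e-07 in Vc. SNAI2 passed the filter on low counts only through its DHT libraries, where it was high. These p-values are therefore not independent of the filter. At its highest, 4.19 CPM in a Vc DHT library, SNAI2 stayed a rare transcript. SNAI1 (Snail) was not called, with 6 reads with DHT and 18 in control in Ver and 14 with DHT and 26 in control in Vc (adjusted p = 0.156 in Ver and 0.467 in Vc). By counting error alone its depth-scaled ratio was 0.325 in Ver (95% interval 0.106 to 0.854) and 0.605 in Vc (0.292 to 1.20). ZEB2, too sparse for the test, had 2 reads with DHT and 4 in control in Ver, and 2 with DHT and 13 in control in Vc, a ratio of 0.173 in Vc with an upper bound of 0.764. VIM had 40 reads, ZEB2 44 and ZEB1 14 over all 16 libraries, and at most 0.526, 0.680 and 0.401 CPM in any library. For TWIST1 a count of 0 allows up to 3 reads, or 0.231 to 0.345 CPM per library, by counting error alone. Of the surface antigens, CD24 rose by 0.35 ± 0.05 in Ver (1.18e-09) and 0.22 ± 0.05 in Vc (6.60e-05). CD44 was called lower in Ver (-0.27 ± 0.08, 0.00562), a call lost without Ver control replicate 1 (0.0516), and not called in Vc (0.01 ± 0.06, 0.944); the difference was not called (0.195).

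**Figure D4:**
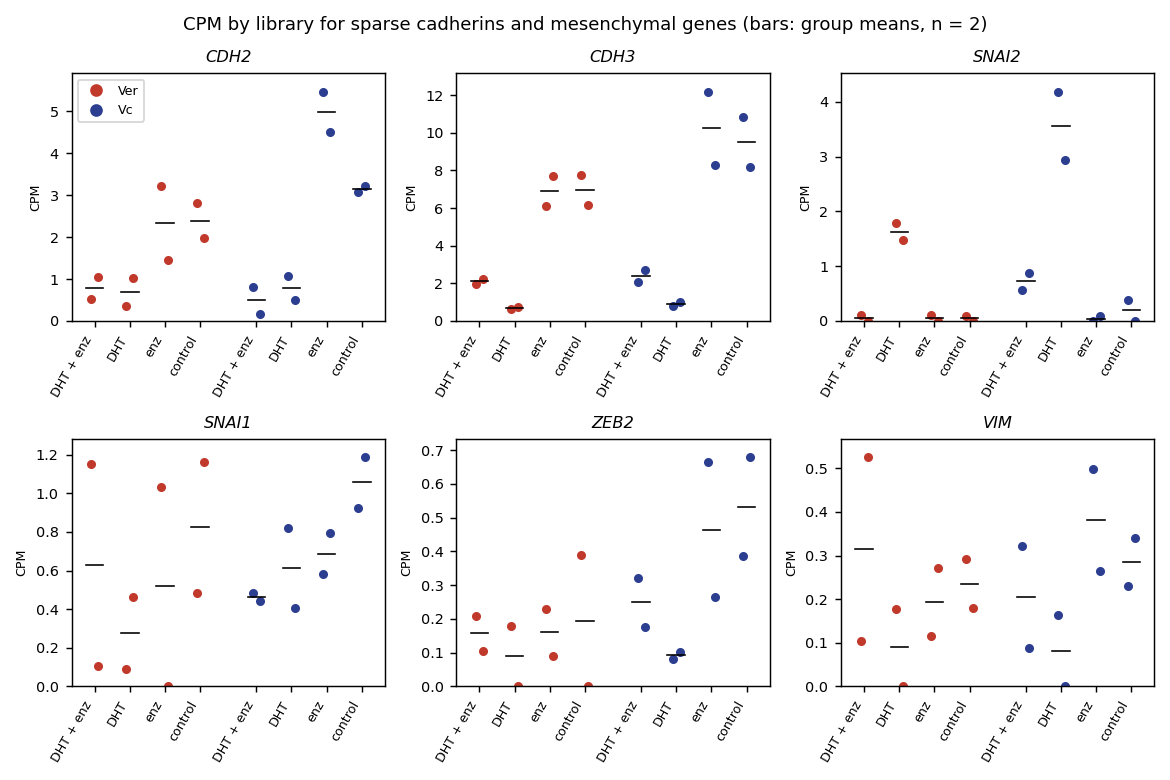
CPM in each library (points, n = 2 per group) with the group mean (bar) for 6 genes of low level, Ver in red left of Vc in blue. CDH3 and CDH2 are low in all DHT libraries, with or without enzalutamide, and SNAI2 is highest with DHT; SNAI1, ZEB2 and VIM stay at or below 1.19 CPM in every library.

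A further list of 100 junction, keratin and EMT genes had 74 tested members. DHT raised 26 and lowered 16 of them in Ver, and raised 31 and lowered 17 in Vc. The all-gene shares were 21.2% raised and 22.9% lowered for Ver, with 21.8% raised and 22.5% lowered for Vc, and the share of the list that was lowered lay near them. Their median log2 change was 0.05 in Ver and 0.21 in Vc. JAM3, a junctional adhesion molecule, had 100.9 and 106.3 CPM with DHT, against 26.0 and 26.8 CPM in control, in Ver, and 90.8 and 107.5 CPM with DHT, against 23.4 and 28.0 CPM in control, in Vc. CDH17, the liver-intestine cadherin, fell in both lines, with a log2 change of -2.44 ± 0.20 in Ver (2.15e-25) and -3.06 ± 0.21 in Vc (1.39e-33). LOX, a collagen cross-linking enzyme listed with EMT genes, rose by 3.85 ± 0.23 in Ver (1.69e-39) and 2.97 ± 0.22 in Vc (2.11e-29).

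Enzalutamide without DHT changed none of the 39 genes past the threshold in either line. edgeR's quasi-likelihood test called 0 in Ver and 0 in Vc, where of all genes 1.13% were called in Ver (0.47% higher, 0.661% lower) and 0.537% in Vc (0.155% higher, 0.381% lower). DESeq2 also called 0 in each. At an unadjusted p under 0.05 there were 5 genes in Ver (CTNND1, CLDN7, OCLN, PARD3 and KRT8) and 3 in Vc (JUP, DSP and ESRP1), with changes of at most 0.27 on the log2 scale in size. Without Ver control replicate 2, TJP1 was called in Ver (-0.28, adjusted p = 0.0482). Of the further list, PKP1, a plakophilin, was called lower in Ver (-0.46 ± 0.07, adjusted p = 3.40e-07). For CDH1 the enzalutamide libraries had 314.3 and 278.6 CPM, against 278.2 and 276.5 CPM in control, in Ver, and 239.9 and 237.8 CPM, against 240.1 and 229.9 CPM in control, in Vc. They overlapped the controls in Vc, and the test called no change in either line.

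When enzalutamide was added to DHT, most of the genes that DHT had raised were called lower than with DHT alone (13 of 17 in Ver, 15 of 19 in Vc). Most were also called higher than control (14 of 17 in Ver, 15 of 19 in Vc). Not called against control were CLDN12 (adjusted p = 0.981), GRHL2 (0.0504) and SNAI2 (0.973) in Ver, and MARVELD3 (0.387), LLGL2 (0.275), GRHL2 (0.191) and SNAI2 (0.118) in Vc. Against DHT alone, 6 of the 39 genes were higher and 13 lower in Ver, with 13.7% of all genes higher and 13.2% lower (26.9% in all). In Vc 5 were higher and 16 lower, with 11.5% of all genes higher and 11% lower (22.4%). Against control, DHT plus enzalutamide raised 15 and lowered 6 in Ver, with 12.4% of all genes higher and 10.3% lower (22.7%). In Vc it raised 16 and lowered 6, with 15.3% of all genes higher and 13.2% lower (28.5%). These comparisons share their libraries with the DHT comparison. For genes picked as raised by DHT, this favours a fall against DHT alone and a rise against control. The matching shares over all genes that DHT raised were not counted, so the values are only set side by side. Called lower than with DHT alone in both lines were CTNNA1, CLDN7, CLDN12, TJP1, MARVELD2, CRB3, ESRP1, GRHL2, KRT8, KRT18, KRT19 and SNAI2. JUP, CGN, CDH3 and CD44 were called higher in both. Of these calls, 15 of 19 in Ver and 10 of 21 in Vc held under every alternative and with each library left out. CLDN12 and MARVELD2 in both lines, and TJP1, CDH3, CGN and SNAI2 in Vc, each lost the call without at least 1 library, with adjusted p of 0.0547 to 0.278. Each library of these groups, other than Ver DHT replicate 1, cost at least 1 of these calls.

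KRT18 had 259.8 and 266.5 CPM with DHT plus enzalutamide, against 396.0 and 401.2 CPM with DHT alone, in Ver. The Vc libraries had 252.2 and 246.6 CPM with both, against 317.9 and 321.1 CPM with DHT alone. The log2 change was -0.60 ± 0.05 in Ver (1.23e-19) and -0.36 ± 0.05 in Vc (9.96e-09). ESRP1 had 286.4 and 315.6 CPM with both, against 492.6 and 487.9 CPM with DHT alone, in Ver, and 252.9 and 254.1 CPM with both, against 343.9 and 337.1 CPM with DHT alone, in Vc. ESRP1 was higher in Ver than in Vc with DHT alone and with both compounds, and the gap was narrower with both. CRB3 had 37.1 and 43.3 CPM with both, against 59.5 and 56.2 CPM with DHT alone, in Ver, and 31.0 and 32.8 CPM with both, against 49.2 and 51.9 CPM with DHT alone, in Vc.

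The share of the DHT change in mean CPM that was left with both compounds differed widely between genes. Over the genes raised by DHT its median was 48.2% in Ver and 51.8% in Vc, and over the genes lowered by DHT it was 77.4% in Ver and 59.6% in Vc. CDH1 kept 83.5% in Ver and 74.4% in Vc, and DSC2 kept 69.7% in Ver and 84.6% in Vc, while KRT19 kept 36.9% in Ver and 31.2% in Vc. GRHL2 kept 36.0% in Ver and 15.2% in Vc. Among the genes lowered by DHT, CDH3 kept 77.4% in Ver and 82.6% in Vc, with 1.99 and 2.21 CPM with both compounds in Ver and 2.09 and 2.73 CPM in Vc. CGN kept 12.1% in Ver and -7.18% in Vc, that is, its level with both compounds was back near control. SNAI2 had 1 read with both compounds, against 36 with DHT alone, in Ver, a ratio of 0.0322 (95% counting interval 0.00079 to 0.191). Vc cells had 17 reads with both, against 80 with DHT alone, a ratio of 0.197 (0.109 to 0.335). SNAI2 passed the filter on low counts only through those DHT libraries, where it was high. The SNAI2 call in Vc (adjusted p = 0.00235) was lost without Vc DHT plus enzalutamide replicate 1 (0.0625) or without Vc DHT replicate 1 (0.0843). JAM3 of the further list had 23.7 and 23.2 CPM with both compounds in Ver and 25.8 and 22.8 CPM in Vc, below both controls in Ver and overlapping them in Vc.

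Between the lines, CD44 and CD24 were lower in Ver and ESRP1 and PKP2 higher under every treatment. In control medium 8 of the 39 genes were higher and 9 lower in Ver than in Vc, with 9.13% of all genes higher and 9.73% lower (18.9%). With DHT 6 were higher and 12 lower (all genes 7.9% and 9.37%, in all 17.3%). With enzalutamide 9 were higher and 12 lower (7.88% and 8.69%, in all 16.6%), and with both compounds 9 and 13 (9.28% and 11%, in all 20.3%). In control medium, 3 of the 39 genes differed by more than 2-fold, whether called or not. These were CD44 and CLDN1, both called lower, and SNAI2, not called, with 1 read over both Ver controls and 5 over both Vc controls. The share of all genes past 2-fold was not counted. The median log2 difference of the 39 genes was 0.03 in control medium and -0.13 with DHT, and of all genes 0.01 in control and -0.01 with DHT. Calls shared by all 4 treatments were not counted over all genes. Among the 39, OCLN, PKP2, LLGL2 and ESRP1 were called higher, and CLDN1, CGN, DSG2, KRT8, CD44 and CD24 lower, under all 4 treatments. Of these 10, the calls of ESRP1, CGN, KRT8, CD44 and CD24 held under every alternative and left-out library in each treatment. With DHT, the LLGL2 call was lost without any 1 of the 4 libraries (0.13 to 0.271) and the OCLN call without Vc DHT replicate 1 (0.0974). CLDN1 with DHT was lost without Vc DHT replicate 1 (0.0667), and DSG2 without that library (0.0926) or Ver DHT replicate 1 (0.0616). In control medium OCLN was lost without either Ver control or Vc control replicate 2 (0.0524 to 0.137). With enzalutamide PKP2 was lost without Ver enzalutamide replicate 1 (0.137) or Vc enzalutamide replicate 2 (0.123). With both compounds OCLN was lost without either Ver library or Vc replicate 2 (0.119 to 0.417), LLGL2 without Ver replicate 1 (0.099) and CLDN1 without Ver replicate 2 (0.248). Without Vc control replicate 2, 11 rather than 17 genes were called in control medium, and without Ver DHT plus enzalutamide replicate 1, 14 rather than 22 were called with both compounds.

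CD44 (chr11:35138870-35232402), the hyaluronan receptor, had 41.9 and 41.0 CPM in Ver control, against 140.4 and 142.7 CPM in Vc control. With DHT it had 34.4 and 34.4 CPM in Ver, against 145.6 and 138.8 CPM in Vc. Over all treatments the highest Ver library had 48.1 CPM and the lowest Vc library 138.8 CPM. The log2 difference was -1.77 ± 0.07 in control (5.75e-50), -2.05 ± 0.08 with DHT (9.01e-56), -1.79 ± 0.07 with enzalutamide (9.09e-50) and -1.96 ± 0.07 with both (5.99e-55). CD24 had 284.5 and 272.3 CPM in Ver control, against 426.9 and 419.8 CPM in Vc control, a log2 difference of -0.60 ± 0.05 (7.58e-21). PKP2 had 18.1 and 17.2 CPM in Ver control, against 9.70 and 11.5 CPM in Vc control (0.74 ± 0.16, adjusted p = 1.82e-04), and 15.8 and 14.0 CPM in Ver with DHT, against 6.49 and 7.82 CPM in Vc with DHT (1.07 ± 0.18, 5.40e-07). ESRP1 was higher in Ver control by 0.39 ± 0.06 (5.86e-09). CLDN1 was lower in Ver control, with a log2 difference of -1.19 ± 0.32 (adjusted p = 0.00294), and that call was lost without Vc control replicate 1 (0.109) and likewise without Ver control replicate 1 (0.129). CDH1 was higher in Ver control by 0.24 ± 0.05 (2.06e-04) and not called with DHT (0.03 ± 0.05, 0.739). EPCAM (0.12 ± 0.06, adjusted p = 0.203) and CDH2 (-0.40 ± 0.40, 0.570) did not pass the test in control medium. SNAI1 and SNAI2 were not called there either, and VIM had 5 reads over both Ver controls and 7 over both Vc controls. With both compounds SNAI2 was called lower in Ver, with 1 read against 17 in Vc, a ratio of 0.0735 (counting interval 0.00176 to 0.469). That call was lost without replicate 2 of either line. SNAI2 was not called with DHT, at a ratio of 0.449 (0.294 to 0.674), or with enzalutamide. CDH2 was called lower in Ver with enzalutamide (log2 difference -1.13), a call lost without either Vc library or Ver replicate 2. It was not called with DHT (-0.25) or both compounds (0.64).

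**Figure D5:**
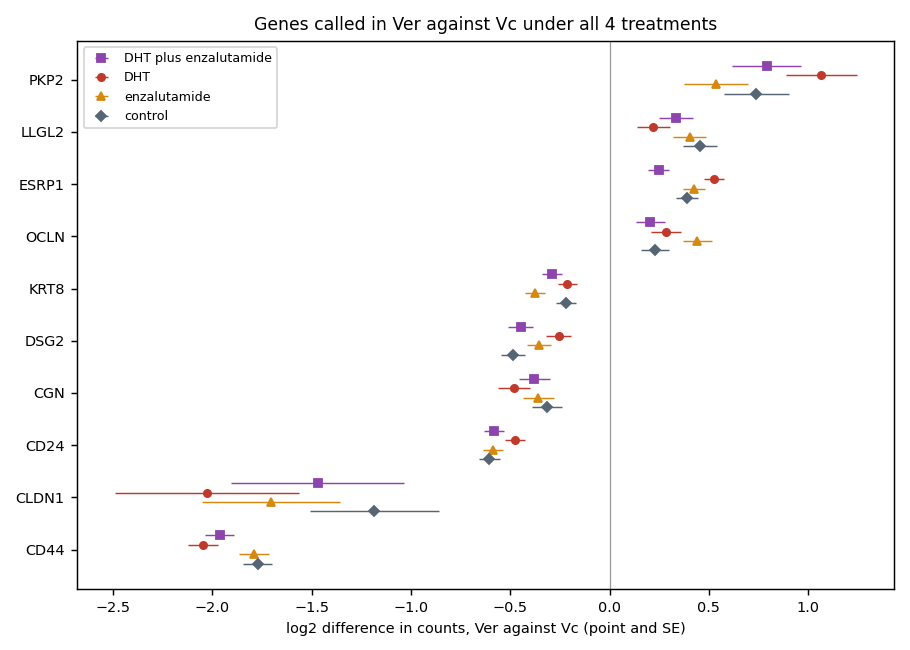
Log2 difference in counts of Ver against Vc, with its SE, under 4 treatments for the 10 genes called under all of them. CD44 lies between -1.77 and -2.05 and PKP2 between 0.54 and 1.07; CLDN1 has the widest errors.

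Genes near these members on the chromosome were also compared between the lines. Of all genes tested, 9.13% were higher and 9.73% lower in Ver control, with a median log2 difference of 0.01. Within 5 Mb of PKP2 on chromosome 12, 12 of 47 tested genes were higher and 1 lower in Ver control (median log2 difference 0.36), the direction of PKP2 itself. Around KRT8, also on chromosome 12, 87 of 268 were higher and 5 lower (median 0.30), while KRT8 was lower (-0.22 ± 0.05, adjusted p = 2.46e-04). Near CD24 on chromosome 6, 14 of 69 were lower and 1 higher. Near CDH2 on chromosome 18, whose own difference was not called, 13 of 45 were lower and 2 higher (median -0.30). By contrast, around CD44 3 of 44 were lower and 1 higher, with a median of -0.04. The part of the neighbouring genes' shift in the members' differences was not tested.

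The difference between the lines in the DHT response was called for 2 of the 39 genes, both with a smaller change in Ver, while of all genes 0.891% were called with a higher and 1.43% with a lower response in Ver (2.32%). KRT19 rose less in Ver than in Vc, with a log2 difference of -0.55 ± 0.08 (adjusted p = 5.68e-07), and this held under every alternative. CLDN4, a claudin, had 176.6 and 180.0 CPM with DHT, against 156.5 and 170.5 CPM in control, in Ver, and 175.8 and 187.6 CPM with DHT, against 137.4 and 135.8 CPM in control, in Vc. Its difference of -0.29 ± 0.08 (adjusted p = 0.0432) was lost in DESeq2 (0.102) and without each of 6 of the 8 libraries, that is, both Ver DHT libraries, Ver control replicate 2, Vc DHT replicate 2 and both Vc controls, with adjusted p of 0.0789 to 0.311. For the response to enzalutamide alone the difference was called for 0 genes by edgeR and by DESeq2 (4 at an unadjusted p under 0.05), with 0.0222% of all genes called, all of them lower. For enzalutamide on top of DHT it was called for CLDN4, ESRP1 and KRT19, with 0.638% of all genes higher and 0.652% lower (1.29%). KRT19 had 139.1 and 156.6 CPM with both compounds, against 221.1 and 202.2 CPM with DHT alone, in Ver, and 189.4 and 191.3 CPM with both, against 337.6 and 346.0 CPM with DHT alone, in Vc. The fall was smaller in Ver by 0.33 ± 0.08 on the log2 scale (adjusted p = 0.0174). CLDN4 differed by 0.35 ± 0.08 (0.0104), and ESRP1, with the larger fall in Ver, by -0.28 ± 0.08 (0.0320). With 1 library left out at most 2 of the 39 genes were called: 0 without Vc DHT plus enzalutamide replicate 1 or without Vc DHT replicate 2, and 1 without Vc DHT plus enzalutamide replicate 2 or without Ver DHT plus enzalutamide replicate 1. Without Ver DHT replicate 2, 2 genes were called, of which 1, CLDN4, was among these 3. CLDN4 lost its call without 3 of the 8 libraries (0.118 to 0.207), KRT19 without 5 (0.053 to 0.213), among them Ver DHT replicate 2 and Ver DHT plus enzalutamide replicate 2, and ESRP1 without 7 (0.0754 to 0.384).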

How the data were processed

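The authors deposited a file of read counts per gene for each library and 1 table of normalized signal. The deposited signal equals the counts divided by a size factor of each library; gene names were taken from it. Per the submitters' processing notes the tools were Trimmomatic 0.36-5, FastQC 0.11.7, HISAT2, HTSeq 0.11.1 and SAMtools, with the GRCh38 genome; per the file headers and names, counting was unstranded in union mode. The annotation release is not given in the sources used here. Gene positions came from GENCODE release 29.

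Counts were filtered by filterByExpr, scaled by TMM and tested with the two-sided quasi-likelihood F test of edgeR 4.0.16 (R 4.3.3). The fit covered all 16 libraries in 8 groups, with residual degrees of freedom 8. Benjamini-Hochberg adjustment was made over 22553 genes in each of 15 comparisons. Variation between the libraries of a group, as edgeR's common coefficient, was 6.01%, and it may be technical. The fit was tested on simulated data. SEs come from the quasi-likelihood variance or Poisson counting, whichever is larger, and CPM use TMM library sizes. Counting intervals are 95% and, like the floor of 3 counts, cover counting error only. Reads in no gene were 45.0 to 50.6% and ambiguous reads 7.09 to 8.55% of counted reads, and were set aside.

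The members, lists and alternatives were chosen with earlier results of these data known. Described in full were called members with a mean of at least 5 CPM and the largest log2 changes, and CDH1, CDH2, EPCAM, VIM, ZEB1, ZEB2, SNAI1, SNAI2 and TWIST1 whatever their result; CDH3, CLDN1 and members shown for contrast were added after their values were seen. Of the further list of 100 genes, up to 4 called genes per comparison could be named. Alternatives were DESeq2 1.42.0, its size factors, no filter, only the groups of a contrast, a replicate block and each library left out. A call counts as held where no alternative lost it. An alternative that gave a gene no adjusted p, as DESeq2 did in some comparisons, was passed over.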

Additional observations from a re-analysis of the deposited data

Results flagged for a closer look

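A test of the difference between the lines set apart 5 results, each as Ver minus Vc on the log2 scale with n = 2 libraries per group. In the DHT response, KRT19 differed by -0.55 and CLDN4 by -0.29, both with the smaller change in Ver. In the effect of enzalutamide on top of DHT, CLDN4 differed by 0.35, KRT19 by 0.33 and ESRP1 by -0.28. Of these 5, the KRT19 difference in the DHT response kept its call under every alternative and with each library left out.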

How the results depend on the processing

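No result that was called in the main or in the alternative analysis reversed its direction. Changes of sign among results called in neither were not counted. DESeq2's size factors shifted the median of all genes by at most 0.02 on the log2 scale. For the difference in the DHT response, 1 rather than 2 genes were called with no filter on low counts, with only the groups of the contrast and with DESeq2, and 1 to 2 with a library left out. For the difference in enzalutamide on top of DHT, DESeq2 called 5 rather than 3 genes (CLDN4, ESRP1, GRHL2, KRT18 and KRT19), and 0 to 2 were called with a library left out. With a library left out, 11 to 13 of 17 genes were called in Ver against Vc in control medium, 14 to 16 of 22 with both compounds, and 0 to 1 for enzalutamide alone in Ver. The cause of these losses was not tested, beyond the lone library that such a fit leaves in 1 group, assumed to vary like the others. Replicate numbers were not found to pair the samples: over 28 pairs of groups, the correlation of same-numbered libraries' deviations ran from -0.12 to 0.12, with 1 pair over 0.1. With the replicate block the count of genes called stayed within 1.5 times in all 15 comparisons, for example 27 in Ver and 28 in Vc for DHT. Depth limits VIM, ZEB1, ZEB2 and TWIST1, which were too sparse to be tested, and SNAI1, which was not called with DHT.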

Other observations

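Of the further list of junction, keratin and EMT genes, DSC3, a desmocollin, had 58.8 and 53.0 CPM in Ver control, against 138.0 and 138.5 CPM in Vc control, a log2 difference of -1.31 ± 0.07 (edgeR's quasi-likelihood test, adjusted p = 4.30e-36). It stayed lower in Ver with DHT (-1.07), with enzalutamide (-1.09) and with both compounds (-1.27). CLDN8, a claudin, had 10.96 and 9.93 CPM in Ver control, against 24.4 and 21.5 CPM in Vc control (-1.14 ± 0.14, adjusted p = 1.77e-11). ERBB3, a growth factor receptor of epithelial cells, had 37.1 and 40.3 CPM in Ver control, against 24.4 and 24.6 CPM in Vc control (0.66 ± 0.12, adjusted p = 2.12e-06). CTNNB1, beta-catenin, had 170.1 and 183.3 CPM with DHT, against 257.3 and 256.4 CPM in control, in Ver, and 249.5 and 258.6 CPM with DHT, against 302.1 and 302.7 CPM in control, in Vc. Its DHT response differed between the lines by -0.29 ± 0.08 (adjusted p = 0.0156).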
